A study of Rattus norvegicus with 9 samples.

Results

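The transcripts of 10 selenoprotein genes were followed through 9 rat livers, with the gene of selenoprotein W, Selenow, at the centre. The genes were taken by symbol (Selenow, Selenop, Selenom, Selenos, Selenok, Selenof, Gpx1, Gpx3, Gpx4 and Dio1) and were all found among the 32883 genes of the count and TPM tables. The group was chosen by the TPM of Selenow, whose values split within the empty group, and its other genes by their family, so the levels of Selenow are given here as a description, without a test. The other 9 genes were tested among the 14089 genes that passed a filter on low counts, and all 9 passed it.

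Male Sprague-Dawley rats aged 8–11 weeks were used, and each library is 1 liver. Normal livers came from normal rats, with no treatment named in the labels (n = 3). Acute-on-chronic liver failure (ACLF) was set up by 21 days of bile duct ligation, which leads to biliary cirrhosis, followed by lipopolysaccharide (LPS) at 0.25 mg/kg intraperitoneally. From 1 h after LPS the blood was passed for 2 h through an extracorporeal circuit, and ACLF livers were taken 24 h after LPS. In the empty group the circuit held neither cells nor an adsorption column (n = 3). In the UTOpiA group it held a granulocyte and monocyte apheresis column in tandem with alginate-encapsulated organoids of human hepatocyte-like cells (iHLCs), made from genome-edited induced pluripotent stem cells (n = 3). Ligation, LPS and the circuit all separate the empty livers from the normal livers and cannot be told apart here, and neither can the column and the iHLCs in the UTOpiA group.

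Selenoproteins carry selenocysteine, an amino acid that the ribosome inserts at a UGA codon when the mRNA bears a stem-loop called a SECIS element. Many of them are redox enzymes that place the selenium at the active site, and the liver both uses them and supplies selenium to other organs by secreting selenoprotein P. When selenium is short, the mRNAs of some selenoproteins are lost before others, an order known as the selenoprotein hierarchy, and Selenow and Gpx1 are usually counted among the sensitive ones. Selenow itself encodes a small cytosolic protein of the thioredoxin-like fold that is best known from skeletal muscle and brain.

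Between 14241172 and 17321677 reads were counted per library. Reads of Alb, the gene of the main plasma protein of hepatocytes, were 13.3% to 14.9% of a normal library and 1.54% to 3.91% of an ACLF library. The hepatocyte markers Alb, Apoa1, Ttr and Cps1 were high in every library. A TPM value is a share of the transcripts of its library, so when abundant liver mRNAs fall, the share of the others rises. The median log2 fold change for the empty against the normal group was 0.44 on log2(TPM + 1) over the 13316 genes with a mean TPM of at least 1, 0.25 over the 20264 genes above 0 TPM in any library, and 0.04 after the TMM scaling of edgeR over the 14089 genes tested. Levels are therefore given below in TPM, and fold changes from the edgeR fit. By the chi-square per degree of freedom of their counts, empty replicate 2 stood apart from empty replicates 1 and 3 (227 and 175, against 46.7 between those), which is not the split of Selenow. Pairs of normal livers had 18.8 to 26.8 and pairs of UTOpiA livers 74.9 to 101. Without empty replicate 2, edgeR called 2 of the 9 genes other than Selenow higher and 3 lower for empty against normal, as with it. The labels give no batch or day for any liver.

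Promoter letters are shown for 5 genes: Selenow, on which the report turns, Selenok, the member most like it across libraries, Gpx3, which rose most of the other 9, and Gpx1 and Dio1, which fell most of them. All 10 genes were matched by symbol to RefSeq windows of rat build GRCr8, and each line holds the 250 bases before the listed start, 5′ to 3′ on the strand of the gene. Capitals mark matches on either strand to 4 motifs, the TATA box (TATAAA), the CCAAT box (CCAAT), the core of the antioxidant response element (TGACNNNGC) and the core of the C/EBP site (TTGCNNAA), none of which overlapped in these windows.
Selenow, chr1:85732704-85732953, minus strand: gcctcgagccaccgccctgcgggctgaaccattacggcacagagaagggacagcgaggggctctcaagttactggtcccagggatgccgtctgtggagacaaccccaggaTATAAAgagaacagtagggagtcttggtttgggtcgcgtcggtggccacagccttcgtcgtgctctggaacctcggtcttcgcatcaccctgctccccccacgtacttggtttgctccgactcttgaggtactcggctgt
Selenok, chr16:5158351-5158600, plus strand: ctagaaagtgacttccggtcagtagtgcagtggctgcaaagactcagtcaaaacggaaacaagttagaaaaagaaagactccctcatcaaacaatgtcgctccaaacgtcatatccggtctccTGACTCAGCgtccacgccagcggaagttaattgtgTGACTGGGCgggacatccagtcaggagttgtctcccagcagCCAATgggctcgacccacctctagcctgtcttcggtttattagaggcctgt
Gpx3, chr10:39529085-39529334, plus strand: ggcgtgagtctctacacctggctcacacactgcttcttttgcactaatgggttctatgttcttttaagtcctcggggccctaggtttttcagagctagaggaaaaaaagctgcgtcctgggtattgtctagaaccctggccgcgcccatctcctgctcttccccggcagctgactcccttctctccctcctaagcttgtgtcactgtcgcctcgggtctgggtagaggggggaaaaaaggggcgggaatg
Gpx1, chr8:117905212-117905461, plus strand: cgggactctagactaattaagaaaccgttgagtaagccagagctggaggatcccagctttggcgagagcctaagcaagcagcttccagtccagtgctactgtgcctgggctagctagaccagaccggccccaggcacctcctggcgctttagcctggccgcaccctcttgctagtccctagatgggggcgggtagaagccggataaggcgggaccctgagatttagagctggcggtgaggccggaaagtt
Dio1, chr5:127319785-127320034, minus strand: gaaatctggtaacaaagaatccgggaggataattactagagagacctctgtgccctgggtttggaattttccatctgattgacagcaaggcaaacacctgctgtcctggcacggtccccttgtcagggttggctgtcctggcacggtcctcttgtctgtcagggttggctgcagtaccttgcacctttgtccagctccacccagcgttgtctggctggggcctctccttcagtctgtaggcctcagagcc
The Selenow window held 1 TATA box match, a motif found in 12.9% of the 33469 windows of the same length. The Selenok window held 2 matches to the antioxidant response element core, which 10.1% of windows contain, and 1 CCAAT box, which 34.0% contain. Selenos, Selenof and Gpx4 each held 2 CCAAT boxes, and the windows of Selenop, Selenom, Gpx1, Gpx3 and Dio1 held none of these letters. The C/EBP core, found in 9.22% of all windows, was in none of the 10.

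Selenow (ENSRNOG00000013548, minus strand of chromosome 1, 77533148 to 77535681 in the tables, whose build is rn6 per the processing notes) split the empty group. The livers of empty replicates 1 and 2 had 127 and 159 TPM, the highest of all 9, while empty replicate 3 had 3.59 TPM, the lowest. Normal livers had 26.7, 45.8 and 59.6 TPM. UTOpiA livers had 9.36, 5.28 and 5.69 TPM. The lowest normal liver lay 2.85-fold above the highest UTOpiA liver, so these groups did not overlap, whereas the empty group reached past both on either side.

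The counts behind these levels were small. Selenow had 57, 104 and 137 reads in normal livers, 338, 391 and 9 in empty livers, and 21, 13 and 14 in UTOpiA livers. The tables use a gene model of 267 bases, the shortest of the 10, which keeps the counts low. The 95% Poisson interval, which covers counting error only, was 1.64 to 6.81 TPM for empty replicate 3, against 114 to 141 TPM for replicate 1 and 144 to 176 TPM for replicate 2. The interval was 5.79 to 14.3 TPM, 2.81 to 9.03 TPM and 3.11 to 9.55 TPM for UTOpiA replicates 1, 2 and 3, and 20.2 to 34.6 TPM for normal replicate 1, the next library up. These intervals describe the precision of each level and were not used to compare libraries.

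**Figure D1:**
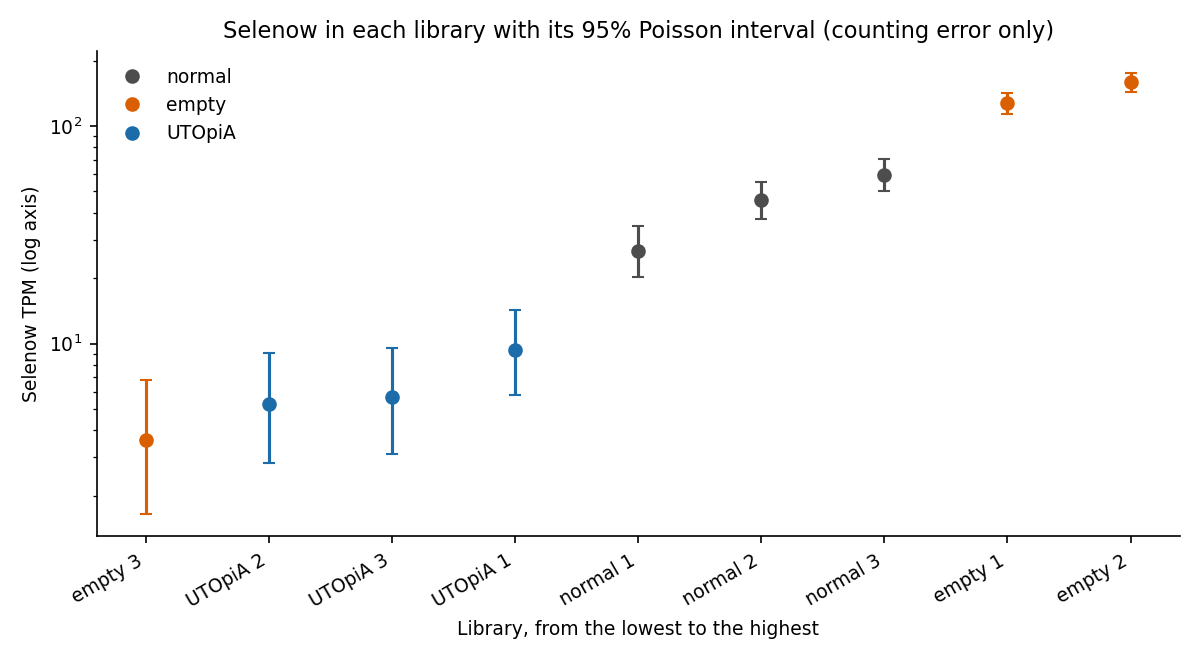
Selenow level in each liver library in TPM (log axis), ordered from the lowest to the highest and coloured by group, with bars for the 95% Poisson interval of the read count. Empty replicate 3 sits lowest at 3.59 TPM beside the 3 UTOpiA livers, the normal livers are in the middle, and empty replicates 1 and 2 are highest at 127 and 159 TPM.

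From the lowest to the highest library Selenow spanned 44.3-fold. The mean of empty replicates 1 and 2 was 39.9-fold the level of empty replicate 3, and the lower of them was 2.13-fold the highest normal liver. The lowest normal liver, in turn, was 7.44-fold above empty replicate 3. Ratios between normal and ACLF livers are of TPM here, whose shares shift between these groups, so their size depends on the scaling. Within the empty group the SD of log2(TPM + 1) was 2.87, beside 0.25 for the median gene. There 16 of 9480 genes, those tested and above a floor on mean TPM, had a larger SD. Selenow was chosen by this spread, so its rank in the empty group only restates the choice. Within the normal group the SD was 0.58, beside 0.13 for the median gene, and 288 genes had a larger one. Within the UTOpiA group it was 0.39, beside 0.31, and 3331 genes had a larger one. With empty replicate 3 in the fit, the edgeR log2 fold change of Selenow was 0.66 for empty against normal and -3.67 for UTOpiA against empty. Without that library these became 1.23 and -4.24. Without empty replicate 2 they were 0.12 and -3.14. The difference of UTOpiA from normal was -3.01 in the fit of all 9 libraries and -3.004 in a fit without the empty livers.

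None of the other 9 genes divided the empty livers in this way. The mean of empty replicates 1 and 2 over replicate 3 ran from 0.512 for Selenom to 1.30 for Selenok. Empty replicate 3 was the lowest empty liver for Selenop and Selenok only, and the highest for Selenom, Selenos, Gpx3, Gpx4 and Dio1. Ranked among 24 selenoprotein genes, Selenow stood 7th in TPM in empty replicates 1 and 2 and 22nd in empty replicate 3, against 9th to 15th in normal livers and 20th in each UTOpiA liver. Because Selenow is rich in skeletal muscle, markers of that tissue were set beside it. The 9 muscle markers in the tables summed to 4.31 and 3.61 TPM in empty replicates 1 and 2 and to 9.61 TPM in replicate 3, and Mb, the muscle myoglobin, was at 0 in all 9 libraries. The sum of the muscle markers was 1.41 to 3.03 TPM in normal livers and 4.59 to 7.91 TPM in UTOpiA livers. Empty replicate 3 also differed from empty replicates 1 and 2 in other cell markers. Its neutrophil sum was 1092 TPM, against 531 and 182 TPM in those. Its cholangiocyte sum was 653 TPM, against 326 and 450 TPM, and its stellate and fibroblast sum 1533 TPM, against 953 and 967 TPM. Its hepatocyte sum was lowest (31688 TPM, against 34388 and 57754 TPM), while its erythroid sum lay between (3114 TPM, against 2533 and 4055 TPM). The part of muscle RNA or of other cells in the Selenow levels was not tested.

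The genes most like Selenow were ranked by Pearson's r of log2(TPM + 1), as a description of libraries that share their processing and composition. Over 9 libraries and 11103 genes the closest were P2rx7, an ATP-gated cation channel of immune cells (r = 0.877), Apbb3 (0.838), the kinase gene Stk35 (0.830), the nucleotide sugar transporter gene Slc35d1 (0.822) and Il1a, which encodes interleukin 1α (0.816). P2rx7 had 8.48, 5.98 and 8.09 TPM in normal livers, 8.83, 7.94 and 4.85 in empty livers, and 5.05, 4.20 and 4.75 in UTOpiA livers. Empty replicate 3 lay among the UTOpiA livers and below empty replicates 1 and 2, over a far narrower range than for Selenow. Il1a had 9.23, 12.3 and 11.9 TPM in normal livers, 4.89, 43.8 and 1.34 in empty livers, and 2.81, 4.18 and 1.19 in UTOpiA livers. It too spread widely among the empty livers, but with replicate 2 alone high. Over the 6 ACLF livers alone the closest were Ell, an elongation factor gene (r = 0.991), AABR07021988.1 (0.986), P2rx7 (0.966), the prohormone convertase gene Pcsk1 (0.951) and Srpra, a subunit of the signal recognition particle receptor (0.95). Ell moved only between 15.25 and 16.97 TPM in these 6 livers. Selenow was high there in empty replicates 1 and 2 alone, so these r values rest mainly on those libraries. They are also the highest picked from 11101 genes.

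Among the other selenoproteins Selenok came nearest (r = 0.684 over 9 libraries, rank 55), and Txnrd1 followed at 0.474. Selenop had 0.035, Gpx1 0.224 and Dio1 -0.13. Selenom was at -0.43 and Sephs2, an enzyme that activates selenium, at -0.585. Over the 6 ACLF livers Selenok had 0.714, Gpx2 0.454, Txnrd2 0.422 and Txnrd1 0.379, while Dio1 had -0.712, Msrb1 -0.609, Selenop -0.23 and Gpx1 -0.176, and the sign turned with the libraries used for Selenop, Gpx1, Msrb1 (0.105 over 9 libraries), Selenof (-0.016 and 0.215), Gpx2 (-0.192 over 9) and Selenon (-0.191 and 0.186). The 3 genes of the table on each side of Selenow were nearly silent, with 3.80 TPM as their highest value in any library. Of 24 genes taken in RefSeq order around Selenow, chosen after values had been seen, 9 were matched by symbol and 5 reached 5 TPM. Nop53, a ribosome assembly factor gene and the nearest of these, had 74.5, 65.1 and 81.9 TPM in empty livers and did not fall in replicate 3. It lies 300515 bases from Selenow in rn6, so it does not describe the region next to Selenow. The builds also order genes here differently, with Crx on opposite sides of Selenow.

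**Figure D2:**
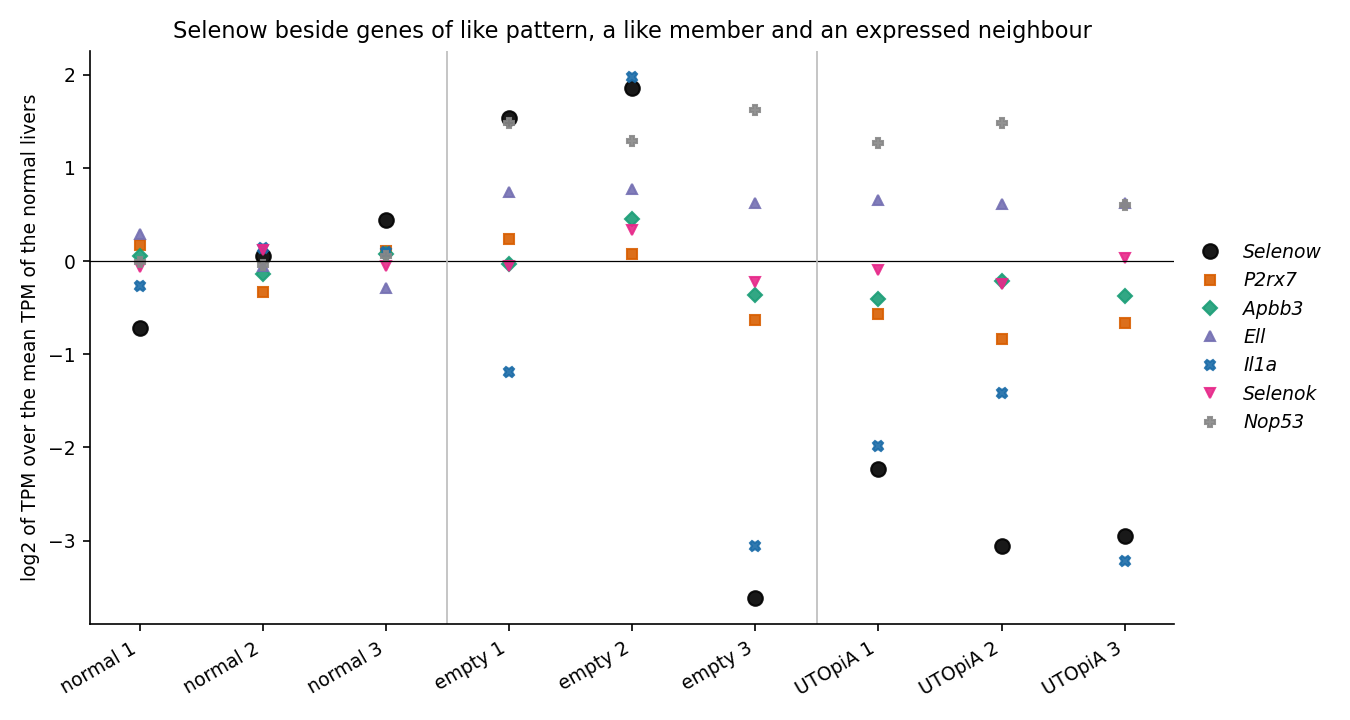
The log2 ratio of each library's TPM to the mean TPM of the 3 normal livers, for Selenow, 4 genes of like pattern (P2rx7, Apbb3, Ell, Il1a), the member most like it (Selenok) and an expressed neighbour (Nop53). Among the empty livers the points of Selenow spread from 127 and 159 TPM in replicates 1 and 2 to 3.59 TPM in replicate 3, those of Il1a from 43.8 TPM in replicate 2 to 1.34 TPM in replicate 3, and those of the other genes shown lie closer together.

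Against the normal livers, the other 9 selenoproteins moved in both directions, and the largest changes were in Gpx3, Selenom, Dio1 and Gpx1. In the empty group edgeR called 2 of 9 higher and 3 of 9 lower (adjusted p under 0.05 and fold change above 2), where 20.7% and 11.1% of all tested genes were called higher and lower. Their median log2 fold change was -0.32, beside 0.04 over all genes. In the UTOpiA group 2 were called higher and 2 lower against normal, with 18.2% and 6.81% of all genes. The median was -0.21, beside 0.05 over all genes. These comparisons share the normal livers. Between UTOpiA and empty, edgeR called 0 of 9, as it did for 0% of all genes, 2 of the 9 had an unadjusted p under 0.05, and DESeq2 and limma also called 0 of 9. Over all genes, DESeq2 called 51 higher and 74 lower of 14484, and limma called 0, or 1 higher with no filter. The 0% of edgeR also rested on single libraries, since over all genes it called 26 higher and 22 lower without empty replicate 2, 32 higher and 17 lower without UTOpiA replicate 2, and 0 higher and 1 lower without empty replicate 3. The p-values measure the spread between 3 livers a group.

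**Figure D3:**
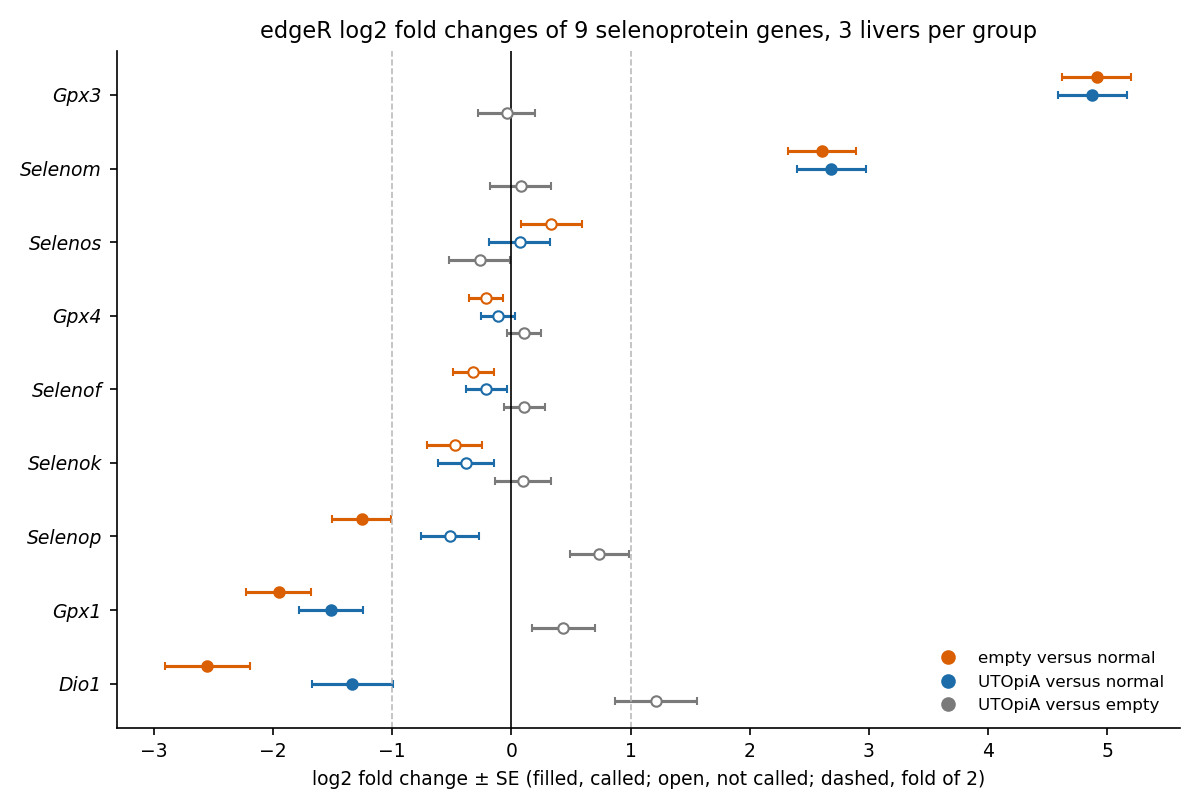
Log2 fold change with its SE from edgeR for the 9 selenoprotein genes other than Selenow, in each of 3 comparisons with 3 livers a group, with filled points for called genes. Gpx3 and Selenom lie far to the right against normal (4.91 and 2.61 in the empty group), Dio1, Gpx1 and Selenop lie to the left, and every point for UTOpiA against empty is open.

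Selenop (ENSRNOG00000053086, chromosome 2, 53109684 to 53114858), the secreted carrier that takes liver selenium to other tissues, was the most abundant of the 10. Normal livers had 5587, 5083 and 5657 TPM, empty livers 3551, 3388 and 2809.9 TPM, and UTOpiA livers 5567, 4789.7 and 3895 TPM. Every empty liver was below every normal and every UTOpiA liver, and the UTOpiA livers overlapped the normal livers. Selenop fell in the empty group by 1.25 on the log2 scale (SE 0.25, adjusted p = 0.00290 by edgeR). On log2(TPM + 1) with limma the fall was smaller, -0.75, with an adjusted p of 0.0114, which misses the fold change of 2. From empty to UTOpiA the log2 fold change was 0.74 (SE 0.25, unadjusted p = 0.0138, adjusted p = 0.395 by edgeR). DESeq2 gave 0.72 with an adjusted p of 0.0224, still under a fold change of 2. Selenop was the only member whose UTOpiA and empty livers did not overlap, where 2.43% of all tested genes lay wholly higher in UTOpiA and 8.62% wholly lower. The UTOpiA livers differed from normal by -0.52 (adjusted p = 0.122).

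The receptors that take up selenoprotein P were followed beside it. Lrp8, which serves brain and testis, was barely present, with at most 0.73 TPM, and was called higher in the empty group (log2 fold change 2.66, adjusted p = 0.0231). Lrp2, the kidney receptor megalin, had 3.49 to 4.64 TPM in normal livers and fell in the empty group by 1.25 on the log2 scale (adjusted p = 0.00428). Lrp1, a scavenger receptor of hepatocytes, had 44.7 to 94.3 TPM over all livers and was not called in any comparison. In the UTOpiA group none of the 3 was called against normal.

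Gpx1 (ENSRNOG00000048812, chromosome 8, 117117430 to 117118522), the cytosolic glutathione peroxidase that reduces hydrogen peroxide, fell in ACLF. It had 1403, 1538 and 1689.7 TPM in normal livers, 441, 682 and 601 TPM in empty livers, and 939.9, 618 and 477 TPM in UTOpiA livers. All 6 ACLF livers were below the normal range, and the ACLF groups overlapped, with UTOpiA replicate 1 highest among them. The log2 fold change was -1.95 in the empty group (SE 0.27, adjusted p = 5.54e-04) and -1.51 in the UTOpiA group (SE 0.27, adjusted p = 0.00249). Between the ACLF groups it was 0.44 (SE 0.27, adjusted p = 0.604).

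Gpx3 (ENSRNOG00000052564, chromosome 10, 40247436 to 40255422), the secreted plasma peroxidase that is made mainly in kidney, went the other way. Normal livers had 3.66, 6.41 and 3.48 TPM. Empty livers had 163, 188 and 238 TPM, and UTOpiA livers 165, 246 and 104 TPM. The ACLF livers were all far above the normal livers and the ACLF groups overlapped widely. The rise was 4.91 on the log2 scale in the empty group (SE 0.29, adjusted p = 2.90e-05) and 4.87 in the UTOpiA group (SE 0.29, adjusted p = 5.23e-05), with -0.04 between them (SE 0.24, adjusted p = 0.970).

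Gpx4 (ENSRNOG00000013604, chromosome 7, 12516352 to 12519154), which reduces lipid peroxides in membranes and is known as the guard against ferroptosis, hardly moved. Normal livers had 157, 146 and 146 TPM, empty livers 171, 187 and 199 TPM, and UTOpiA livers 188, 189 and 144 TPM. The empty livers were all above the normal livers in TPM, yet after TMM scaling the log2 fold change was -0.21 (SE 0.14, adjusted p = 0.244), so its direction depends on the scaling. The gene overlaps Sbno2 on the opposite strand, and whether reads were counted by strand is not given in the sources used here.

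Dio1 (ENSRNOG00000061237, chromosome 5, 126895286 to 126911520), the liver deiodinase that turns thyroxine into active thyroid hormone, fell most of the 9 in the empty group, and second to Gpx1 in the UTOpiA group. Normal livers had 106, 70.5 and 90.3 TPM, empty livers 17.2, 18.9 and 30.1 TPM, and UTOpiA livers 59.2, 27.0 and 42.1 TPM. The ACLF livers were all below the normal range, and UTOpiA replicate 2 fell inside the empty range while replicates 1 and 3 lay above it. The log2 fold change was -2.55 in the empty group (SE 0.36, adjusted p = 6.24e-04) and -1.33 in the UTOpiA group (SE 0.34, adjusted p = 0.0139). From empty to UTOpiA it was 1.22 (SE 0.34, unadjusted p = 0.00620, adjusted p = 0.348). Without UTOpiA replicate 2 this became 1.54 with an adjusted p of 0.0419, so the call turns on that library.

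Selenom, Selenos, Selenok and Selenof encode proteins of the endoplasmic reticulum, where they serve redox folding, the removal of misfolded proteins and calcium handling. Selenom (ENSRNOG00000061231, chromosome 14, 83752393 to 83754973) was the only member of these 4 that was called. Normal livers had 4.63, 5.05 and 4.64 TPM, empty livers 38.2, 26.2 and 62.9 TPM, and UTOpiA livers 42.3, 47.9 and 27.5 TPM. All ACLF livers were above all normal livers. Its log2 fold change was 2.61 in the empty group (SE 0.29, adjusted p = 1.76e-04) and 2.69 in the UTOpiA group (SE 0.29, adjusted p = 2.49e-04), and 0.08 between them (SE 0.25, adjusted p = 0.944).

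Selenos (ENSRNOG00000012576, chromosome 1, 126979575 to 126989344), a part of the machinery that draws misfolded proteins out for degradation, had 51.2, 45.7 and 43.9 TPM in normal livers, 88.1, 56.6 and 112 TPM in empty livers, and 45.3, 71.0 and 65.6 TPM in UTOpiA livers. The empty livers were above the normal livers in TPM, but the fitted log2 fold change of 0.34 (SE 0.26, adjusted p = 0.303 by edgeR) was not called. With limma on TPM it was 0.80 to 0.81 (adjusted p 0.0261 to 0.0442), still under a fold change of 2. By edgeR it was 0.17 without empty replicate 3 and 0.55 without empty replicate 2. Selenok (ENSRNOG00000014624, chromosome 16, 6035926 to 6044239), which takes part in calcium flux of immune cells, had 172, 194 and 172 TPM in normal livers, 172, 226 and 153 TPM in empty livers, and 167, 151 and 184 TPM in UTOpiA livers, and its groups overlapped throughout. Selenof (ENSRNOG00000055257, chromosome 2, 250600823 to 250633897), a partner of the glycoprotein folding sensor, had 181, 187 and 172 TPM in normal livers, 228, 187 and 203 TPM in empty livers, and 182, 216 and 182 TPM in UTOpiA livers. These 2 genes differed from normal by -0.48 (adjusted p = 0.119) and -0.32 (adjusted p = 0.149) in the empty group, and by -0.38 and -0.21 in the UTOpiA group. Every empty liver was above every normal liver for Selenof in TPM, if barely, and limma on log2(TPM + 1) gave 0.19 for it in the empty group, so its direction depends on the scaling, as does that of Selenok (0.018). Their levels stayed within the narrowest range of the 10 genes together with Gpx4.

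**Figure D4:**
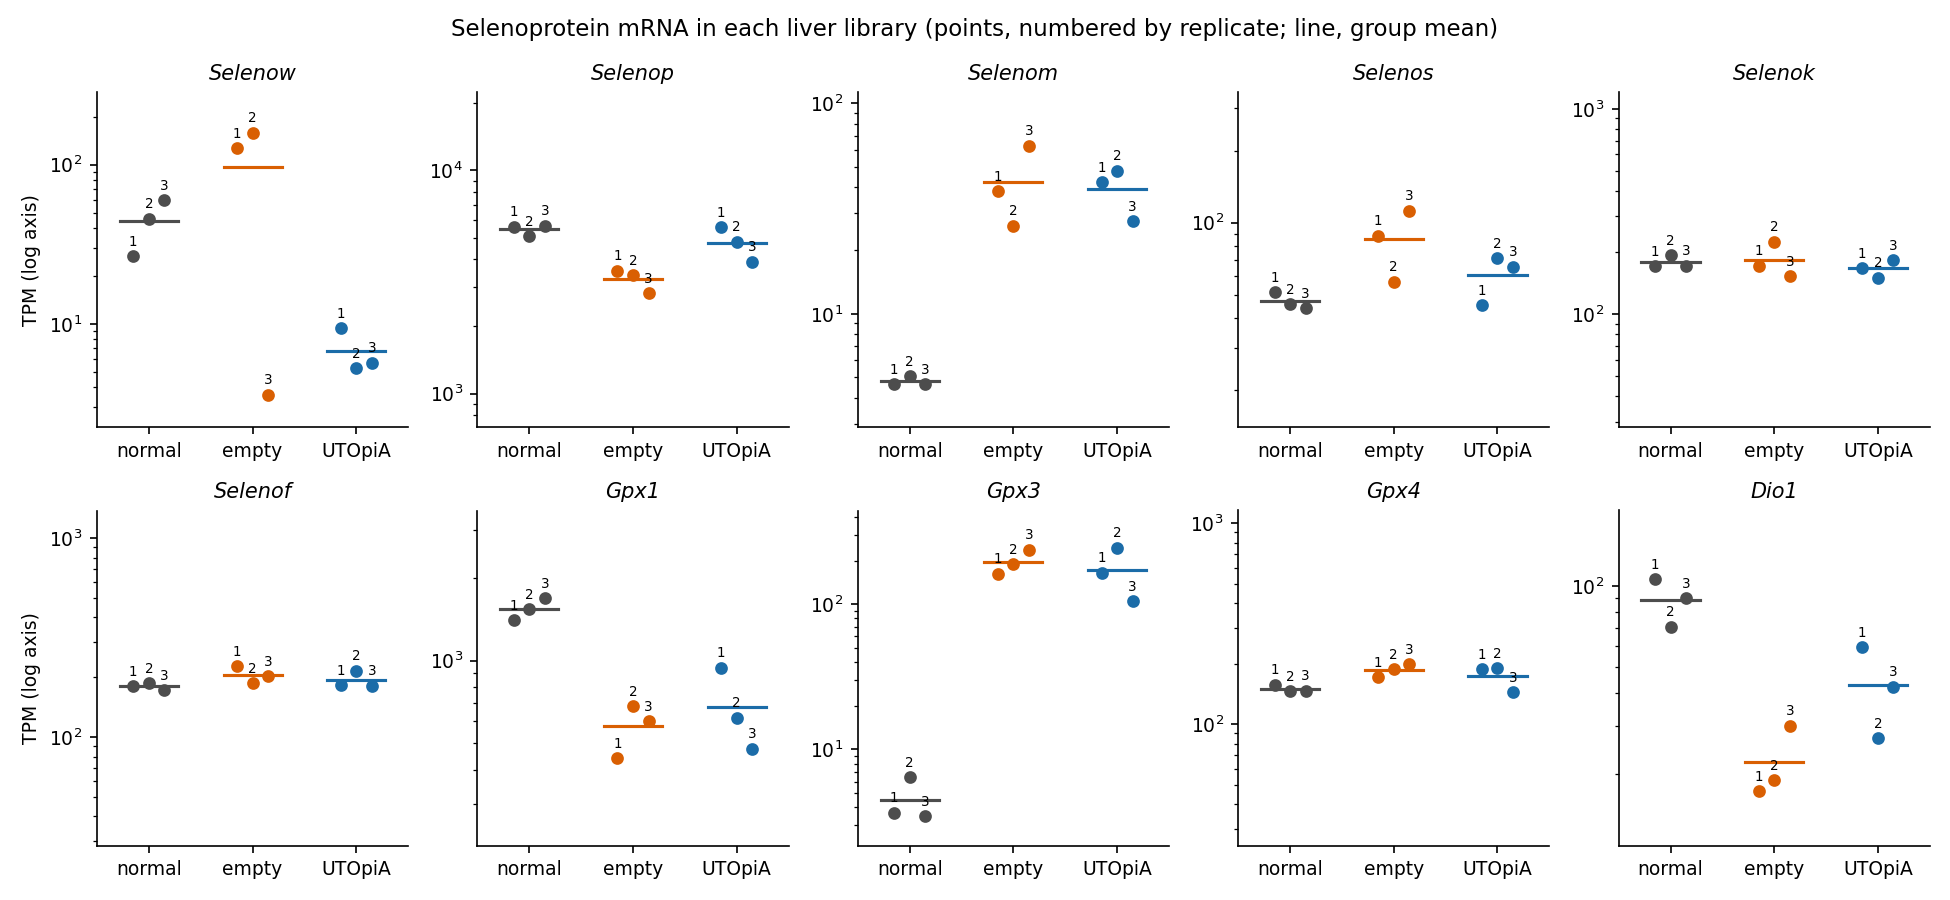
TPM of the 10 selenoprotein genes in each library (log axes of differing span), with points numbered by replicate and a line at the mean of each group of 3 livers. Gpx3 and Selenom stand higher in all 6 ACLF livers than in normal livers, Gpx1 and Dio1 stand lower, and Selenow is split within the empty group.

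By TPM, 5 of the 9 genes other than Selenow lay wholly above normal in the empty group and 3 wholly below, where 53.4% and 12.8% of all tested genes did so. In the UTOpiA group 2 lay wholly above and 2 wholly below normal, beside 39.0% and 13.4% of all genes. Summed over 24 selenoprotein genes, normal livers had 7852 to 8586 TPM, empty livers 5164 to 5739 TPM and UTOpiA livers 5572 to 7868 TPM. Selenop made up 54.4% to 70.8% of each sum and so set most of its course. Selenow made up 2.27% and 2.77% of it in empty replicates 1 and 2 and 0.0694% in empty replicate 3.

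The falls of Gpx1, Dio1 and Selenop went with lower hepatocyte markers. The 10 hepatocyte markers summed to 150991 to 163114 TPM in normal livers, 31688 to 57754 TPM in empty livers and 37413 to 57738 TPM in UTOpiA livers, and 7 of 10 were called lower in the empty group and 5 of 10 in the UTOpiA group. Alb made up most of the sum in normal livers but not in every ACLF liver, and the other 9 summed to 35207 to 37446 TPM in normal livers, 18849 to 24147 TPM in empty livers and 23698 to 27803 TPM in UTOpiA livers. Serpina1, a secreted protease inhibitor, was not called and lay wholly above normal in TPM in each ACLF group (log2 fold change 0.07 and 0.65). Markers of several other cell types, though not of all, were higher in the ACLF livers, as Gpx3 and Selenom were. The 7 cholangiocyte markers summed to 25.3 to 35.4 TPM in normal livers, 326 to 653 TPM in empty livers and 143 to 427 TPM in UTOpiA livers, with 6 of 7 called higher in each ACLF group. The 7 stellate cell and fibroblast markers summed to 107 to 119.7 TPM in normal livers, 953 to 1533 TPM in empty livers and 586 to 1114 TPM in UTOpiA livers. Of these, 6 were called higher in each ACLF group, and Lrat, a gene of vitamin A storage, was not called (-1.13 and -0.53). The 6 macrophage markers summed to 195 to 232 TPM, 372 to 653 TPM and 257 to 519.6 TPM, with 5 of 6 called higher in the empty group and 4 of 6 in the UTOpiA group. Neutrophil markers, led by S100a8 and S100a9, summed to 2.26 to 5.92 TPM in normal livers and 173 to 1092 TPM in ACLF livers, with Mpo at or near 0 throughout. Erythroid markers summed to 109 to 312 TPM in normal livers, 2533 to 4055 TPM in empty livers and 842 to 1411 TPM in UTOpiA livers. Most of that sum came from the globin genes Hba-a1, Hba-a2 and Hbb, while Slc4a1, the anion exchanger of red cells, fell in the empty group (log2 fold change -1.44, adjusted p = 0.0244 by edgeR) and had -1.10 in the UTOpiA group (adjusted p = 0.0756). Adipocyte markers summed to 52.0 to 61.7 TPM in normal livers and 191 to 351 TPM in ACLF livers, where Fabp4 made up the largest part (log2 fold change 5.96 in the empty group), with 2 of 3 tested called higher in each ACLF group, Adipoq and Plin1 at or near 0 and Lep at 0. T and B cell markers summed to 1.46 to 2.51 TPM in normal livers and 5.60 to 10.99 TPM in ACLF livers. Endothelial markers summed to 74.6 to 80.5 TPM in normal livers, 64.4 to 114 TPM in empty livers and 69.5 to 80.1 TPM in UTOpiA livers, with 1 of 5 called higher and 1 lower in each ACLF group. Pancreas and gut markers summed to 31.7 to 45.1 TPM, 34.8 to 46.9 TPM and 29.7 to 51.6 TPM in the same groups. These sums hide opposite changes among the 3 genes tested. Vil1 was called higher (log2 fold change 6.16 in the empty and 5.64 in the UTOpiA group) and Fabp2 lower (-1.90 and -1.46). Beside these counts of called markers, 20.7% of all tested genes were called higher and 11.1% lower in the empty group. For the UTOpiA group the shares were 18.2% and 6.81%. The part of these cells in the selenoprotein results was not tested. In whole tissue fewer cells of a type and less RNA per cell cannot be told apart.

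The remaining selenoproteins, a list of 14 genes of which 12 were tested, also moved in both directions. In the empty group 3 were called higher and 2 lower, beside 20.7% and 11.1% of all genes, and in the UTOpiA group 3 and 3, beside 18.2% and 6.81%. Gpx2, the gastrointestinal glutathione peroxidase, rose from 1.12, 0.12 and 3.69 TPM in normal livers to 108, 148 and 148 TPM in empty livers and 57.3, 81.9 and 38.1 TPM in UTOpiA livers. Its log2 fold change was 5.81 in the empty group (SE 0.65, adjusted p = 2.66e-04) and 4.78 in the UTOpiA group (SE 0.63, adjusted p = 8.07e-04). Selenon, which supports calcium handling in the endoplasmic reticulum, rose by 1.59 and 1.28 in the same comparisons. Dio3, the deiodinase that inactivates thyroid hormone, rose by 3.10 and 2.41 from at most 0.25 TPM in normal livers and stayed at or under 2.00 TPM.

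Msrb1, a methionine sulfoxide reductase and the most abundant gene of this list by its mean over the 9 livers and in normal livers, fell from 148 to 159 TPM in normal livers to 63.7 to 101 TPM in empty livers and 69.8 to 75.0 TPM in UTOpiA livers. Its log2 fold change was -1.50 (SE 0.18, adjusted p = 2.83e-04) and -1.38 (SE 0.18, adjusted p = 5.96e-04). In the empty livers its mean was below those of Gpx2, Selenoh, Selenot and Sephs2. Txnrd2, the mitochondrial thioredoxin reductase, fell by 1.47 and 1.27. Txnrd1, the cytosolic thioredoxin reductase, had 42.4, 48.3 and 49.3 TPM in normal livers, 40.9, 48.5 and 52.4 TPM in empty livers, and 26.4, 34.8 and 26.2 TPM in UTOpiA livers. All UTOpiA livers were below all other livers, and Txnrd1 was called lower against normal, at the edge of the fold change of 2 (-1.001, SE 0.14, adjusted p = 7.94e-04). Against empty the difference was -0.50 (SE 0.14, adjusted p = 0.346). Selenot, in the endoplasmic reticulum, and Sephs2 came next by the mean over the 9 livers, and neither was called. None of the 12 was called between UTOpiA and empty. Dio2 and Selenov failed the filter on low counts.

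Of the 12 genes found for making and inserting selenocysteine, all tested, none was called higher and 3 were called lower in the empty and in the UTOpiA group against normal, beside 20.7% higher and 11.1% lower of all genes for empty and 18.2% and 6.81% for UTOpiA. Scly, the lyase that frees selenium from selenocysteine for reuse, fell by 2.54 (SE 0.51, adjusted p = 0.00354) and by 1.84 (SE 0.49, adjusted p = 0.0177). It had 96.9, 105 and 104 TPM in normal livers, 12.7, 46.3 and 16.1 TPM in empty livers, and 54.4, 27.7 and 24.7 TPM in UTOpiA livers. Sepsecs, the synthase that completes selenocysteine on its tRNA, fell by 1.71 and 1.83, and Secisbp2l, a relative of the protein that binds the SECIS element, fell by 1.31 and 1.49. The SECIS-binding protein gene Secisbp2 itself differed by 0.14 and 0.02 and was not called. Rpl30, a ribosomal protein that binds the SECIS element, and Eif4a3 had, with Scly, the highest means over the 9 livers in this list, an order that differed between groups, and neither was called. Between UTOpiA and empty none of the 12 was called, and Scly differed by 0.71 (SE 0.48, adjusted p = 0.646).

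**Figure D5:**
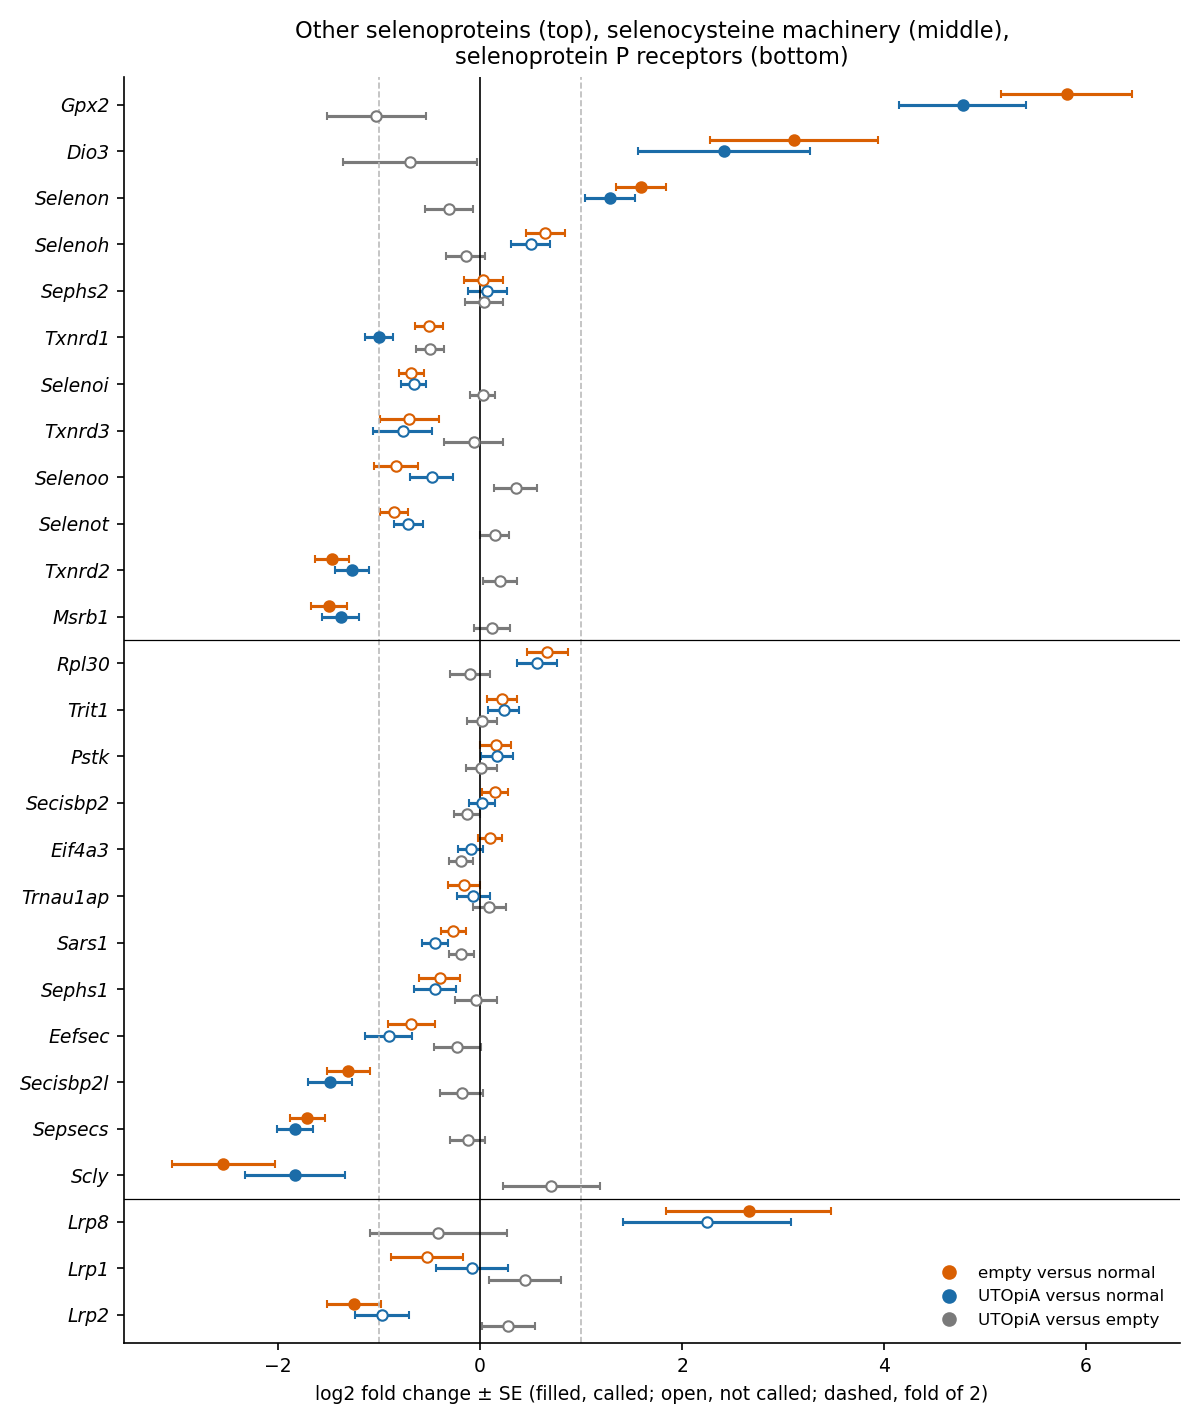
Log2 fold change with its SE from edgeR for 12 further selenoprotein genes, 12 genes of the selenocysteine machinery and 3 selenoprotein P receptors, in 3 comparisons with 3 livers a group, filled where called. Gpx2 lies farthest to the right (5.81 in the empty group) and Scly farthest to the left (-2.54), and no point for UTOpiA against empty is filled.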

How the data were processed

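Bulk RNA-seq was measured in 9 rat livers, 3 each of the normal, empty and UTOpiA groups, and each library was assigned by its title. The authors deposited raw counts per gene as whole numbers and TPM, which the deposited table scales by gene length. Sources differ on how these were made. The methods name Cutadapt, HISAT2, featureCounts and a mouse build, whereas the submitters' processing notes name Trimmomatic, HISAT2, featureCounts and rn6, and the tables list rat Ensembl genes. Poly(A) RNA was selected. The methods name a directional library kit and the labels a kit of another maker. The strand setting of the read counting is not given in the sources used here. Gene lengths behind the TPM were inferred from counts over TPM, and 31 of 42 short genes came within 1 base of their span.

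Counts were fitted with edgeR 4.0.16 in R 4.3.3 (filterByExpr, TMM, robust quasi-likelihood test, two-sided, all 9 libraries, one mean per group). Calls required a fold change above 2 and, over 14089 genes, a p under 0.05 after Benjamini-Hochberg adjustment. All p-values in the text come from this fit unless DESeq2 1.42.0, limma 3.58.1 or a library left out is named. With a library left out, edgeR was fitted again to the rest. The fit was tested on simulated data. Levels were taken from the TPM, and intervals are exact Poisson at 95%. Replicate pairs differed by more than sampling noise, with a chi-square per degree of freedom of at least 18.8.

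The members and lists were chosen with earlier results of these data known. All 10 members, every called gene of 3 selenium lists and the 3 most abundant of each, the 5 genes most like Selenow over 9 and over 6 libraries and the 3 table neighbours on each side are named. The older symbol Sars was listed beside Sars1, under which the table holds the gene. The genes edited in the iHLCs are not reported here. Motifs were counted in RefSeq GRCr8 windows, whose coordinates were not mixed with those of the tables. The 19 alternatives were DESeq2, limma on log2(TPM + 1) for genes whose mean TPM reached 1 or for all genes, a pseudocount of 0.1, median-of-ratios factors, no count filter, a minimum of 10 counts in each library, calls by adjusted p alone, the 6 libraries compared, a replicate block and each library left out.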

Additional observations from a re-analysis of the deposited data

How the results depend on the processing

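Precision was limited by 3 livers a group, and for Selenow by 9 to 391 reads. Over the 19 alternatives the 9 genes other than Selenow kept 2 called higher against normal in the empty and in the UTOpiA group, and 2 called lower in the UTOpiA group. In the empty group 2 to 3 were called lower, since limma on TPM gave Selenop -0.749, -0.75 and -0.749 (fold change under 2, adjusted p 0.0107 to 0.0139). Between UTOpiA and empty, 0 were called lower throughout, and the number called higher was 0 to 1 with single libraries left out, the 1 being Dio1 without UTOpiA replicate 2 (1.54, adjusted p = 0.0419). The fitted fold change of Selenow, which could not be fitted under at least 10 counts in every library, ran from 0.0077 to 1.23 for empty against normal, -4.24 to -2.58 for UTOpiA against empty and -3.29 to -2.50 for UTOpiA against normal. Of 567 values of single genes, 34 changed sign, and none of these was called. For empty against normal, limma on log2(TPM + 1), on log2(TPM + 0.1) and without a filter gave 0.0183, 0.0183 and 0.0183 for Selenok, 0.189, 0.19 and 0.189 for Selenof, and 0.306, 0.308 and 0.306 for Gpx4. For UTOpiA against normal they gave 0.0965, 0.097 and 0.0965 for Selenof and 0.204, 0.205 and 0.204 for Gpx4. For UTOpiA against empty they gave -0.059, -0.0593 and -0.059 for Selenom, -0.122, -0.122 and -0.122 for Selenok, -0.0924, -0.0929 and -0.0924 for Selenof, and -0.102, -0.103 and -0.102 for Gpx4. TPM scaling moved the median of all genes, as given with the libraries. Leaving out single libraries changed further signs for UTOpiA against empty. With single libraries left out, Selenom ran from -0.16 (without empty replicate 2) to 0.395, Selenok from -0.154 (without UTOpiA replicate 3; -0.0593 without empty replicate 3) to 0.284, Selenof from -0.0086 (without UTOpiA replicate 3) to 0.242, and Gpx3 from -0.221 to 0.109 (without UTOpiA replicate 3; 0.0609 without empty replicate 3). For UTOpiA against normal, Selenos ran from -0.182 (without UTOpiA replicate 3) to 0.252. The cause of these changes was not tested.

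Samples that share a replicate number came from different rats. Over 9 same-numbered pairs the correlation of their deviations ran from -0.18 to 0.064, 0 pairs were over 0.1, and 2 of 9 libraries were closest to their own number, so the numbers do not pair the samples. With the replicate block, 2 members were called higher and 3 lower for empty against normal, 2 and 2 for UTOpiA against normal, and 0 and 0 for UTOpiA against empty, as without it. Over all genes the block gave 2746 higher and 1532 lower for empty against normal, against 2916 and 1560 without it.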

Other observations

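Gpx7 and Gpx8, members of the glutathione peroxidase family that carry cysteine in place of selenocysteine, were looked at after their values had been seen. Gpx7 had 3.33 to 3.65 TPM in normal livers, 11.97 to 20.9 TPM in empty livers and 11.8 to 24.2 TPM in UTOpiA livers, and its edgeR log2 fold changes against normal were 1.58 (empty) and 2.01 (UTOpiA). Gpx8 had 1.22 to 1.97 TPM, 12.2 to 19.1 TPM and 7.66 to 19.5 TPM in the same groups, with 2.84 and 2.79. Dio2, which was too low to test, had 0 reads in each normal liver, 35, 10 and 24 reads in empty livers and 4, 8 and 1 reads in UTOpiA livers.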
